A study of Sus scrofa with 23 samples.

Results

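A set of 7 genes that carry the signal from Toll-like receptors (TLRs) into the cell was followed over 23 arrays of pig bone marrow-derived macrophages: MYD88, TICAM2, IRAK1, TRAF6, MAP3K7, TBK1 and NFKB1. They were taken by name from the platform annotation, which gave all 7 of them at least 1 probe set, a group of short probes that together report 1 transcript. MYD88, IRAK1, TRAF6 and MAP3K7 had 2 probe sets each, and TICAM2, TBK1 and NFKB1 had 1, so 11 of 23999 probe sets and 7 of 6765 named genes are described. The probe set with the highest mean over all arrays stands for its gene.

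The cells came from 3 pigs of the labelled breed largeWhite x Landrace F1, of unstated age, with pigs 1 and 3 labelled male and pig 2 female. Bone marrow was cultured for 5 to 7 days with rhCSF1, the growth factor that drives macrophage development, and then given LPS from Salmonella enterica serotype minnesota at 100 ng/ml. The labels list 6 arrays at 0 h, 6 at 2 h, 6 at 7 h and 5 at 24 h, with a culture and a duplicate culture per pig and time except for pig 3 at 24 h. The labels give no culture without LPS at 2, 7 or 24 h, so time in culture and LPS cannot be told apart.

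LPS is sensed by TLR4 with its partners CD14 and LY96. From work mainly in mouse and human cells, TLR4 is known to signal along 2 branches. In the first, MYD88 binds the receptor and gathers IRAK kinases, TRAF6 builds ubiquitin chains, and MAP3K7 (also called TAK1) on those chains activates the kinases that release NF-kB. In the second, TICAM2 (TRAM) couples the receptor to TICAM1, and TBK1 then activates IRF3, which turns on interferon beta. Most of these proteins are controlled by modification and assembly, so an mRNA level is not a measure of their activity.

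The labels of these arrays did not hold up against the arrays themselves. EIF1AY, a Y-linked gene, had a log2 intensity of 8.16 to 9.45 on some arrays and 3.60 to 4.08 on the others, and on 8 of 23 arrays that level went against the labelled sex. When each array was matched to its closest array, 11 pairs chose each other. All 11 were neighbouring columns of the deposited table, 1 and 2, 3 and 4 and so on. All 11 shared a labelled pig and 0 of the 11 shared a labelled time. By the labels, the 2 columns of such a pair always share a pig and differ in time. A different order has been inferred from these data, in which columns 1 to 6 are 0 h, columns 7 to 12 are 2 h, columns 13 to 18 are 7 h and columns 19 to 23 are 24 h, and each neighbouring pair is the 2 cultures of an animal, in the order of pigs 1, 2 and 3. Under it, EIF1AY went against the sex of the animal on 0 of 23 arrays. This order is not in the labels and was chosen with the levels known. The values are therefore described below by column, with the inferred time as a name only and with no test. The tests follow the labels and come after that description.

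Within the inferred runs, some columns lay closer to another run. Over the 4 runs, columns 21 and 22 were nearer to columns 13 to 18 than to the rest of their own run, with a median absolute distance of 0.60 against 0.71 log2 units over probe sets spanning at least 2 log2 units. Columns 7 and 8 were nearer to columns 1 to 6, at 0.35 against 0.41. TNF, a cytokine of activated macrophages, had 10.66 and 10.39 in columns 21 and 22, against 6.20, 6.33 and 7.84 in columns 19, 20 and 23. In columns 7 and 8 it had 12.48 and 12.51, inside the range of 12.35 to 12.56 of columns 7 to 12. IL1B, another inflammatory cytokine, ran from 12.70 to 14.21 in columns 19 to 23, against 7.53 to 8.60 in columns 1 to 6, and columns 21 and 22 held its highest values in that run. Where the overlap of a member's runs changes without columns 7 and 8 or without columns 21 and 22, both results are given.

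The cells carried macrophage transcripts on every array. The lowest log2 intensity over the 23 arrays was 12.61 for TYROBP, a signalling adaptor of myeloid cells, and 12.62 for AIF1, a macrophage calcium-binding protein. Of the T cell receptor genes, CD3E was dim, between 4.21 and 4.99, as was CD3G, between 4.13 and 4.79. CD3D ran from 5.61 to 6.31, and the T and NK cell marker CD2 reached 10.45. Of the macrophage markers, ITGAM and MARCO were also dim, at no more than 5.03 and 6.15. Some genes listed for other cell types were bright: S100A9 ran from 9.41 to 13.73, JCHAIN from 7.06 to 9.23 and PECAM1 from 9.68 to 10.70. From the same lists as JCHAIN and PECAM1, CD79B and KDR reached no more than 4.51 and 4.37. Of the stromal (connective tissue) markers, 7 were measured. COL6A3 reached 10.14, LUM 9.38, PDGFRB 9.37 and DCN 8.76, while POSTN stayed at no more than 4.56. The summed intensity of the 7 ran from 538 to 3073 in columns 1 to 6. COL3A1 alone of them lay wholly above columns 1 to 6, by 0.60 in columns 7 to 12 and 0.75 in columns 13 to 18. The part of these markers in the members' values was not tested. Array medians ran from 69.5 to 73.9 intensity units, and the number of arrays limits the precision.

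**Figure D1:**
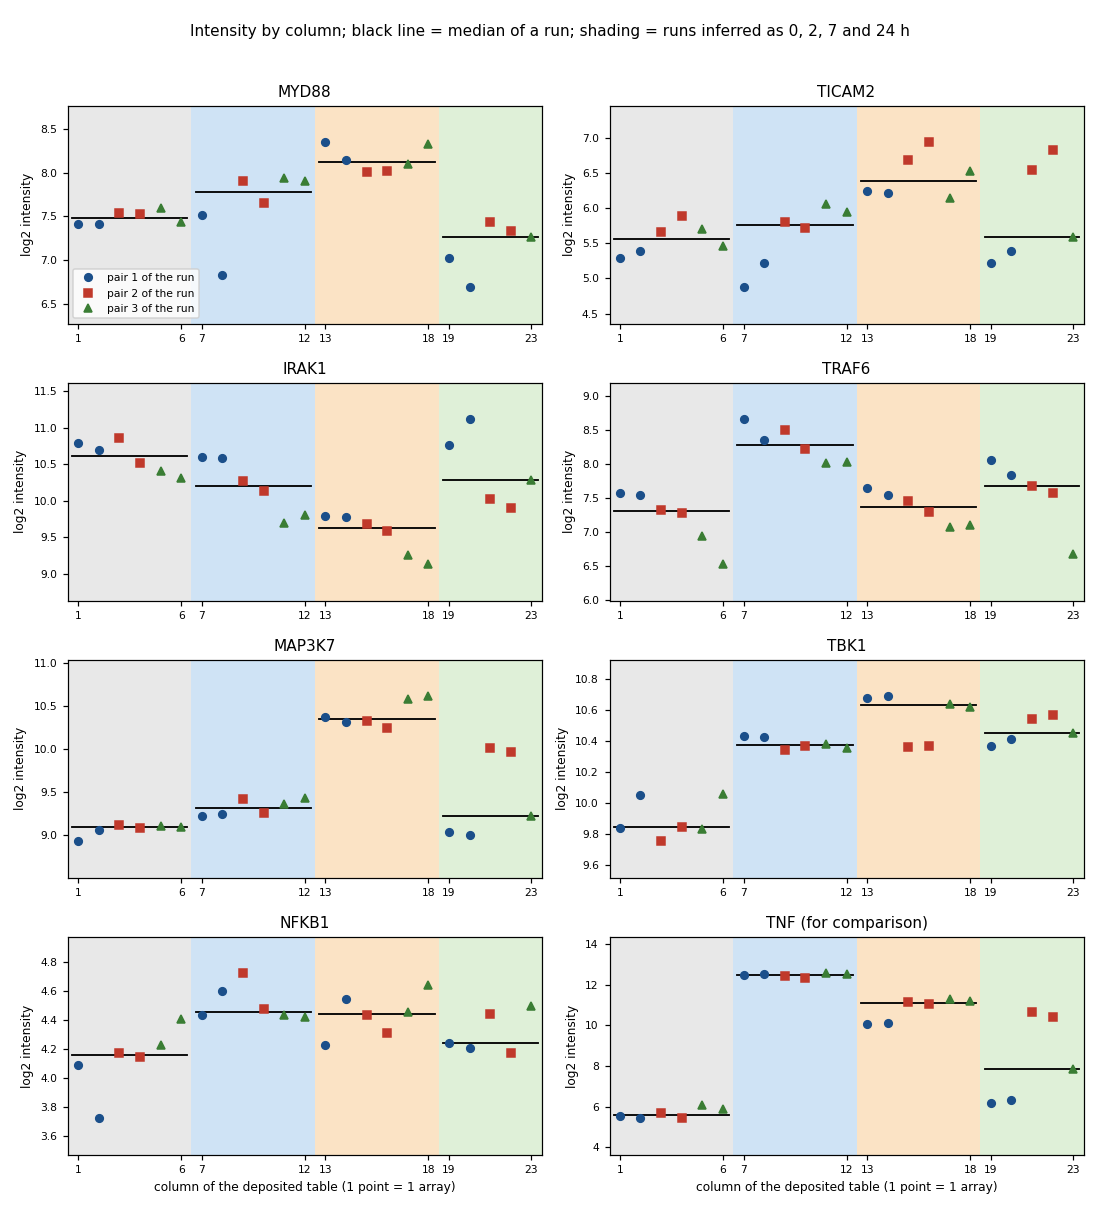
Log2 intensity of the 7 genes, and of TNF for comparison, on each array in the order of the deposited columns; 1 point is 1 array, the symbol marks its pair in the run, the black line is the median of a run, and each panel has its own scale. TRAF6 was highest in columns 7 to 12, and MAP3K7 was highest and IRAK1 lowest in columns 13 to 18. Columns 21 and 22 lay above the rest of their run for TICAM2, MAP3K7, MYD88 and TBK1, and below it for IRAK1.

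TRAF6, the ubiquitin ligase of the MYD88 branch, stood out in columns 7 to 12, inferred as 2 h. Its lowest, median and highest log2 intensity were 6.52, 7.30 and 7.57 in columns 1 to 6, 8.02, 8.29 and 8.66 in columns 7 to 12, and 7.08, 7.37 and 7.64 in columns 13 to 18. Columns 19 to 23 had 8.06, 7.85, 7.68, 7.58 and 6.68. All 6 arrays of columns 7 to 12 thus lay above all 6 of columns 1 to 6, with a gap of 0.45 and medians 0.98 log2 units apart, a 1.98-fold difference. The same run lay wholly above columns 13 to 18, whose median differed from it by -0.91 log2 units. Columns 13 to 18 overlapped columns 1 to 6, with medians 0.07 apart.

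Pair by pair, TRAF6 was higher in columns 7 to 12 than in columns 1 to 6 by 0.95 for the first pair, 1.06 for the second and 1.29 for the third. Neighbouring columns differed by a median of 0.10 and at most 0.42. The order of the pairs was the same in every run: the first was highest and the third lowest, with pair means of 8.51, 8.37 and 8.03 in columns 7 to 12 and of 7.56, 7.30 and 6.74 in columns 1 to 6. The second TRAF6 probe set was dim, with a mean of 3.95, but it too separated these runs: it ran from 4.03 to 4.31 in columns 7 to 12, against 3.47 to 3.85 in columns 1 to 6. Its gap of 0.17 was smaller than its median difference of 0.20 between neighbouring columns. Its columns 19 to 23 overlapped columns 1 to 6, at a difference of 0.13, but lay wholly above them without columns 21 and 22, at 0.28.

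MAP3K7, the kinase that TRAF6 chains activate, had its widest difference in columns 13 to 18, inferred as 7 h. Its lowest, median and highest values were 8.93, 9.09 and 9.12 in columns 1 to 6, 9.22, 9.31 and 9.44 in columns 7 to 12, and 10.25, 10.35 and 10.61 in columns 13 to 18. In columns 19 to 23 it had 9.04, 9.004, 10.01, 9.97 and 9.22. These values put columns 13 to 18 wholly above each of the other 3 runs. The median of columns 13 to 18 exceeded that of columns 1 to 6 by 1.26 log2 units, or 2.40-fold, and that of columns 7 to 12 by 1.04.

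The smaller MAP3K7 difference between columns 7 to 12 and columns 1 to 6, 0.22 log2 units or 1.17-fold, also came with no overlap, and the gap of 0.10 stood beside a median difference between neighbours of 0.05 and a highest of 0.16. The second MAP3K7 probe set overlapped in that comparison, at 8.04 to 8.50 in columns 7 to 12 against 7.81 to 8.23 in columns 1 to 6. Without columns 7 and 8, which held 8.04 in both arrays, the lowest value was 8.26 and the runs did not overlap. For columns 13 to 18 against columns 1 to 6 both probe sets separated, and the second differed by 1.34. In the last run, columns 21 and 22 stood at 10.01 and 9.97, near columns 13 to 18, and columns 19, 20 and 23 lay between 9.004 and 9.22. The difference of columns 19 to 23 from columns 13 to 18, -1.13 with no overlap, was -0.38 without columns 19 and 20.

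IRAK1, a kinase that MYD88 gathers at the receptor, was the member with lower values. It had a lowest, median and highest of 10.31, 10.61 and 10.86 in columns 1 to 6, of 9.70, 10.20 and 10.60 in columns 7 to 12, and of 9.13, 9.63 and 9.79 in columns 13 to 18. The last run gave 10.77, 11.12, 10.02, 9.90 and 10.29. Columns 13 to 18 lay wholly below columns 1 to 6, with a gap of 0.52 and a median difference of -0.98, a 1.97-fold difference in level. Columns 7 to 12 overlapped columns 1 to 6, at a difference of -0.41.

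In columns 19 to 23 the 3 pairs of IRAK1 went apart. Against columns 1 to 6, the first pair was higher by 0.20, the second differed by -0.73 and the single array of the third by -0.07. Against columns 1 to 6 the medians of the whole run differed by -0.32, and by 0.16 without columns 21 and 22, with overlap. The run lay wholly above columns 13 to 18, by 0.66 between medians, and by 1.14 without columns 21 and 22. The second IRAK1 probe set showed none of this: it kept between 6.12 and 6.61 on all 23 arrays, and its runs overlapped in all 5 comparisons between runs. The 2 probe sets of IRAK1 thus disagree, and the description of IRAK1 rests on the brighter of them.

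MYD88, the adaptor shared by most TLRs and the interleukin 1 receptor, was highest in columns 13 to 18. Its lowest, median and highest values were 7.41, 7.48 and 7.59 in columns 1 to 6, 6.83, 7.78 and 7.94 in columns 7 to 12, and 8.01, 8.12 and 8.35 in columns 13 to 18. Columns 19 to 23 gave 7.03, 6.69, 7.44, 7.33 and 7.27. The arrays of columns 13 to 18 were all above those of columns 1 to 6, by 0.64 between medians (1.56-fold), and all above those of columns 7 to 12, by 0.34 with a gap of 0.07. That gap was smaller than the median difference of 0.16 between neighbouring columns.

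Columns 7 and 8 held MYD88 at 7.51 and 6.83, while columns 9 to 12 held it between 7.65 and 7.94. That pair differed by 0.68, the widest difference between neighbours for any member probe set. Columns 19 to 23 lay wholly below columns 13 to 18, with a difference of -0.85, and overlapped columns 1 to 6 at -0.21; without columns 21 and 22 they lay wholly below columns 1 to 6 as well, at -0.45. The other MYD88 probe set was dim on every array, from 3.41 to 3.84, and no 2 runs separated in it.

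TICAM2, the bridging adaptor of the TICAM1 branch, with a single probe set of mean 5.89, was also highest in columns 13 to 18. It had a lowest, median and highest of 5.30, 5.56 and 5.89 in columns 1 to 6, of 4.87, 5.76 and 6.06 in columns 7 to 12, and of 6.15, 6.39 and 6.94 in columns 13 to 18. Columns 19 to 23 had 5.22, 5.39, 6.55, 6.83 and 5.60, so that columns 21 and 22 again lay inside the range of columns 13 to 18 while columns 20 and 23 lay inside that of columns 1 to 6 and column 19 just below it. Columns 19 to 23 overlapped columns 13 to 18, with a difference of -0.79, and of 0.16 without columns 19 and 20. Columns 13 to 18 were wholly above columns 1 to 6, by 0.83 or 1.77-fold. They were also wholly above columns 7 to 12, by 0.63 with a gap of 0.09. That gap was smaller than the median difference of 0.22 between neighbouring columns. Between columns 7 to 12 and columns 1 to 6 the pairs differed by -0.30, -0.02 and 0.42, and the runs overlapped.

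TBK1, the kinase that acts on IRF3, was the only member that lay wholly above columns 1 to 6 in all 3 later runs. The lowest, median and highest were 9.75, 9.84 and 10.06 in columns 1 to 6, 10.35, 10.37 and 10.43 in columns 7 to 12, and 10.36, 10.63 and 10.69 in columns 13 to 18. The values in columns 19 to 23 were 10.37, 10.41, 10.54, 10.57 and 10.45. The medians exceeded that of columns 1 to 6 by 0.53 (1.45-fold), 0.79 (1.73-fold) and 0.61 (1.53-fold) in columns 7 to 12, 13 to 18 and 19 to 23, and the later runs overlapped each other. Neighbouring columns differed by a median of 0.02 and at most 0.23. The first of these differences came to 0.43 with neighbouring columns averaged or without columns 3 and 4.

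NFKB1, which encodes the precursor of an NF-kB subunit, had a single and dim probe set, whose mean of 4.35 lay at the 22.5th percentile of all probe sets. Its lowest, median and highest values were 3.72, 4.16 and 4.40 in columns 1 to 6, 4.42, 4.46 and 4.72 in columns 7 to 12, and 4.23, 4.44 and 4.64 in columns 13 to 18, and columns 19 to 23 had 4.24, 4.20, 4.44, 4.17 and 4.50. Columns 7 to 12 lay above columns 1 to 6 by 0.30 between medians, but the gap of 0.01 was smaller than the median difference of 0.18 between neighbouring columns. The other 4 comparisons between runs overlapped.

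**Figure D2:**
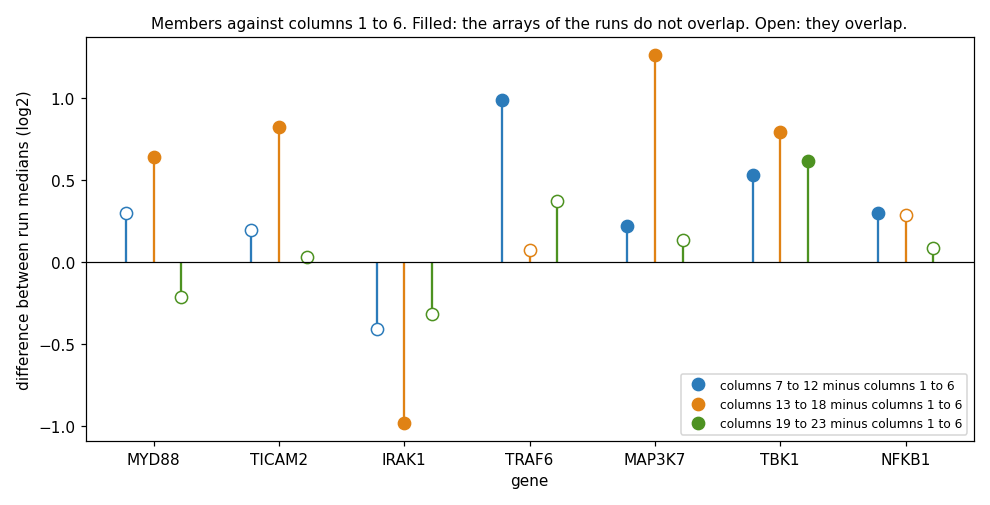
Difference between the median log2 intensity of columns 7 to 12, 13 to 18 or 19 to 23 and that of columns 1 to 6, for each of the 7 genes; filled points mark runs whose arrays do not overlap. In columns 13 to 18, MAP3K7 was higher by 1.26 and IRAK1 differed by -0.98, while TBK1 has filled points in all 3 later runs.

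Counted together, 4 of 7 members lay wholly above columns 1 to 6 in columns 7 to 12 (TRAF6, MAP3K7, TBK1 and NFKB1), beside 5.47% of all 6765 genes, and 0 of 7 lay wholly below, beside 11.4%. Without columns 7 and 8 those counts were 5 and 1, as MYD88 then lay wholly above and IRAK1 wholly below. The shares of all genes were computed for the full runs only, so counts with arrays left out have no share beside them. Leaving arrays out makes it easier for any gene to separate. In columns 13 to 18 against columns 1 to 6, 4 of 7 lay above (MYD88, TICAM2, MAP3K7 and TBK1), beside 13.9% of genes, and 1 of 7 below (IRAK1), beside 28.0%. In columns 7 to 12 the summed intensity of 3 B and plasma cell markers ran from 1915 to 2905, against 3420 to 5338 in columns 1 to 6, and 1 of the 3 lay wholly below. That was BLNK (-0.60), a B cell adaptor that macrophages also express, while JCHAIN (-0.39) and CD79B (0.14) overlapped. The summed intensity of 5 erythroid and platelet markers ran from 481 to 573 in columns 13 to 18, against 612 to 712 in columns 1 to 6, and the 1 that separated was the haemoglobin gene HBB (-1.12). The part of these markers in the members' values was not tested, and in bulk RNA fewer cells of a type and less RNA per cell cannot be told apart. The median difference of the members was 0.30 and 0.64 in these comparisons, and that of all genes -0.04 and -0.05.

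For columns 19 to 23 against columns 1 to 6, only TBK1 of the 7 members lay above, beside 13.9% of genes, and 0 lay below, beside 22.4%, so the members' share above was close to that of all genes. The count rested on few arrays, and no share of all genes was computed for the counts with arrays left out. Without columns 19 and 20, 2 lay above (TBK1 and MAP3K7) and 1 below (IRAK1); without columns 21 and 22, 1 lay above and 1 below (MYD88); without column 23, 2 lay above (TBK1 and TRAF6). In columns 19 to 23 the summed intensity of 10 measured macrophage markers ran from 20556 to 22537. Columns 1 to 6 had 17958 to 19494. Of the 10, 4 lay wholly above columns 1 to 6 (CD14, CD163, FCGR1A and SPI1) and 0 below. Some markers of other cell types also differed in this run. The summed intensity of 5 measured granulocyte markers ran from 13160 to 15746 in columns 19 to 23, against 1197 to 3759 in columns 1 to 6, and 2 of the 5 lay wholly above (S100A9 and LTF) and 1 below (ELANE). That of 8 T and NK cell markers ran from 271 to 1604, against 196 to 241, but only CD2 of the 8 lay wholly above and 0 lay below; the T cell receptor genes CD3D (0.29), CD3E (0.06) and CD3G (-0.11) overlapped. S100A9, a calcium-binding protein of granulocytes that monocytes also make, had a median log2 intensity of 13.6 in columns 19 to 23 and 10.4 in columns 1 to 6, and CD2 had 9.20 and 5.51, whereas the neutrophil elastase gene ELANE had 5.74 and 7.22. The T and NK sum also separated in columns 13 to 18, at 345 to 668, again with CD2 alone of the 8 markers apart. The erythroid and platelet sum ran from 452 to 490 in columns 19 to 23, where HBB (-1.74) lay wholly below columns 1 to 6, as did the endothelial receptor gene TEK (-0.96). The part of these markers in the members' values was not tested.

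Between the later runs, columns 13 to 18 lay wholly above columns 7 to 12 for 3 of 7 members (MYD88, TICAM2 and MAP3K7), beside 12.3% of genes, and wholly below for 1 (TRAF6), beside 19.4%. Columns 19 to 23 lay wholly above columns 13 to 18 for 1 member (IRAK1), beside 14.1%, and wholly below for 2 (MYD88 and MAP3K7), beside 10.6%. Without columns 21 and 22 TICAM2 joined those below, at -0.996, and the counts were 1 above and 3 below. For these 2 counts no share of all genes was computed.

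The members did not share a single profile. Each of the 6 with a span of at least 1 log2 unit was compared with the other genes by the root mean square difference between profiles centred on their own mean over the 23 arrays, which share runs and pairs. IRAK1 lay nearest to SEC14L1, at 0.114 log2 units where the median gene was 0.563 away, and then to JOSD1 (0.167) and ZMYM2 (0.173). MAP3K7 lay nearest to GOSR2 (0.130), PPP2R2A (0.167) and EZH2 (0.167), where the median gene was at 0.639. Nearest to MYD88 were PREB (0.214), ATP6V1A (0.223) and NCK2 (0.230), against a median of 0.517.

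TICAM2 had looser neighbours, DNAJA1 (0.255), STARD3 (0.288) and PSMA2 (0.299), with the median gene at 0.624. TRAF6 had the loosest, ST3GAL1 (0.307), TRIP10 (0.330) and DPH3 (0.347), with the median gene at 0.610. For NFKB1 the nearest were DIRAS3 (0.158), LTB (0.160) and SSTR3 (0.160), little closer than a flat profile would be, since NFKB1 itself deviated by 0.214 from its own mean. In 0 of these 6 cases was another member among the nearest 3 genes. With 7 members among 6765 genes, that count says little about the members.

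The rest of the pathway was read from lists in which many genes had no named probe set, among them TIRAP, TICAM1, IRAK2, IRAK3 and IRAK4. Of 15 receptors and co-receptors, 11 were measured. In columns 7 to 12 against columns 1 to 6, 2 of them lay wholly above, TLR2 (1.04) and CD14 (1.61), and 1 wholly below, TLR4 (-0.80). TLR2 senses bacterial lipoproteins and CD14 hands LPS to TLR4. TLR4 stayed wholly below columns 1 to 6 in the later runs too, at -0.48 in columns 13 to 18 and -0.70 in columns 19 to 23. In all, 2 receptors lay above and 2 below in columns 13 to 18, and 3 above and 3 below in columns 19 to 23. The shares of all genes above and below columns 1 to 6, given above, are 5.47% and 11.4% in columns 7 to 12, 13.9% and 28.0% in columns 13 to 18, and 13.9% and 22.4% in columns 19 to 23, and each list count stands beside them. The widest differences of the list were those of TLR8, an RNA sensor, at -2.30, and LY86, a partner of CD180, at 2.26, both in columns 19 to 23.

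Inhibitors of the pathway had 9 of 16 genes measured, and 5 lay wholly above columns 1 to 6 in columns 7 to 12 and 0 below, beside the 5.47% and 11.4% of all genes given above. SOCS1, a suppressor of cytokine signalling, had a median of 8.88 in columns 7 to 12 and 4.61 in columns 1 to 6. NFKBIA, which holds NF-kB in the cytoplasm, had 13.12 and 10.02, and TNIP1, which binds the ubiquitin editor TNFAIP3, had 10.82 and 9.80. In columns 13 to 18, 5 of 9 lay above and 1 below, beside 13.9% and 28.0% of genes, and in columns 19 to 23, 6 above and 0 below, beside 13.9% and 22.4%.

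Of the 8 listed genes of the IKK and TBK1 complexes, 3 were measured. TANK, a scaffold that binds TBK1, was 1.77 higher in columns 7 to 12 than in columns 1 to 6, with no overlap, and OPTN, a ubiquitin-binding partner of TBK1, was 2.36 higher in columns 19 to 23. IKBKG, the regulatory subunit of the IKK complex, differed by -0.04 to -0.07 and overlapped in all 3 runs. Of the 9 NF-kB and IRF factors listed, 4 were measured, and all 4 lay wholly above columns 1 to 6 in columns 13 to 18, beside 13.9% of genes: IRF7 (3.31), IRF1 (3.14), IRF8 (1.55) and IRF3 (0.73). IRF3, the target of TBK1, overlapped in columns 7 to 12, at -0.04.

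Of 5 measured TAK1 partners and ubiquitin enzymes, 0 separated in columns 7 to 12 and 3 lay wholly below in columns 13 to 18, beside 28.0% of genes, with a list median of -0.11. The 3 below were SHARPIN (-0.36), a subunit of a ubiquitin ligase complex, UBE2N (-0.11), the conjugating enzyme that works with TRAF6, and its partner UBE2V1 (-0.07), while ECSIT (-0.54) overlapped. Of 7 MAP kinase genes, 2 lay below in columns 7 to 12, MAPK14 (-0.63) and MAP2K2 (-0.16), beside 11.4% of genes. In columns 13 to 18, 1 lay above and 1 below, beside 13.9% and 28.0%. In columns 19 to 23, 1 lay above and 1 below, beside 13.9% and 22.4%: MAP2K2, a kinase that activates ERK, was 0.94 higher than in columns 1 to 6, the widest difference of the list, and the dim MAP2K6 differed by -0.30. PIK3AP1, the 1 other adaptor measured, was 1.49 higher in columns 13 to 18 with no overlap. The list of other IRAK and TRAF proteins, which also holds PELI1, had 2 measured genes. PELI1 was 0.28 higher in columns 7 to 12 without overlap, and TRAF5 overlapped in all 3 runs. These lists were drawn up with earlier results of these arrays known and show no more than their counts.

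**Figure D3:**
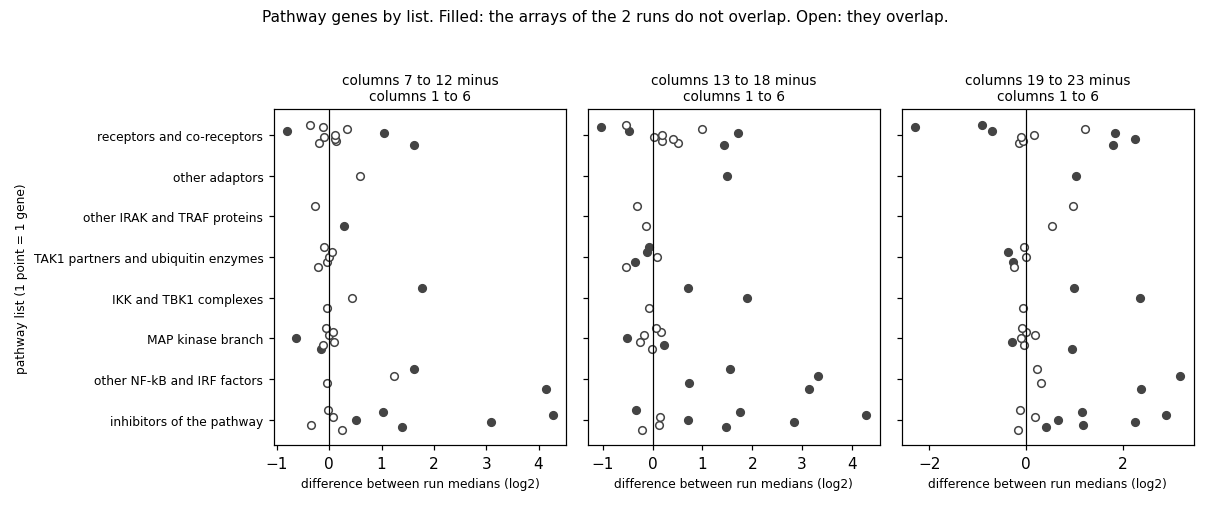
Difference between run medians (log2, against columns 1 to 6) for each measured gene of 8 pathway lists; filled points mark runs that do not overlap. SOCS1 (4.27) and IRF1 (4.14) lie farthest right in columns 7 to 12 and no TAK1 partner has a filled point there.

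Taken by the labels, the members gave no call. In limma with pig as a block, over 5 comparisons between labelled times and 11 member probe sets, 0 of 55 differences passed at an adjusted p of 0.05, and 1 of 55 had an unadjusted p under 0.05. Of all 23999 probe sets, 0.0125% were called between the labelled 2 h and 0 h arrays. Between 7 h and 0 h, 0% were, with 754 probe sets at an unadjusted p under 0.05, and each of the remaining comparisons (24 h with 0 h, 7 h with 2 h, 24 h with 7 h) called 0.00417%. The member differences lay between -0.52 and 0.36 log2 units, with an adjusted p of 0.914 or higher. None was called without the 8 arrays whose EIF1AY level goes against their sex.

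The 1 member difference with an unadjusted p under 0.05 was that of MYD88. It averaged 7.28 ± 0.64 at the labelled 24 h and 7.80 ± 0.31 at the labelled 0 h (SD, n = 3 labelled pigs each). The difference was -0.52 ± 0.21 (SE, limma adjusted p = 0.914). TRAF6 averaged 7.42 ± 0.43 at the labelled 2 h and 7.57 ± 0.44 at the labelled 0 h (SD, n = 3 labelled pigs each). Some labelled pigs joined arrays with EIF1AY high and low, such as 4.08 and 8.82 for pig 2 at the labelled 0 h. These SDs are therefore not spreads over 3 known animals. The arrays of each labelled group mixed high and low columns: TRAF6 ran from 6.52 to 8.23 at the labelled 2 h and from 6.95 to 8.50 at the labelled 0 h. Since the labels failed the check above, these tests show neither an effect of LPS on these genes nor its absence.

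**Figure D4:**
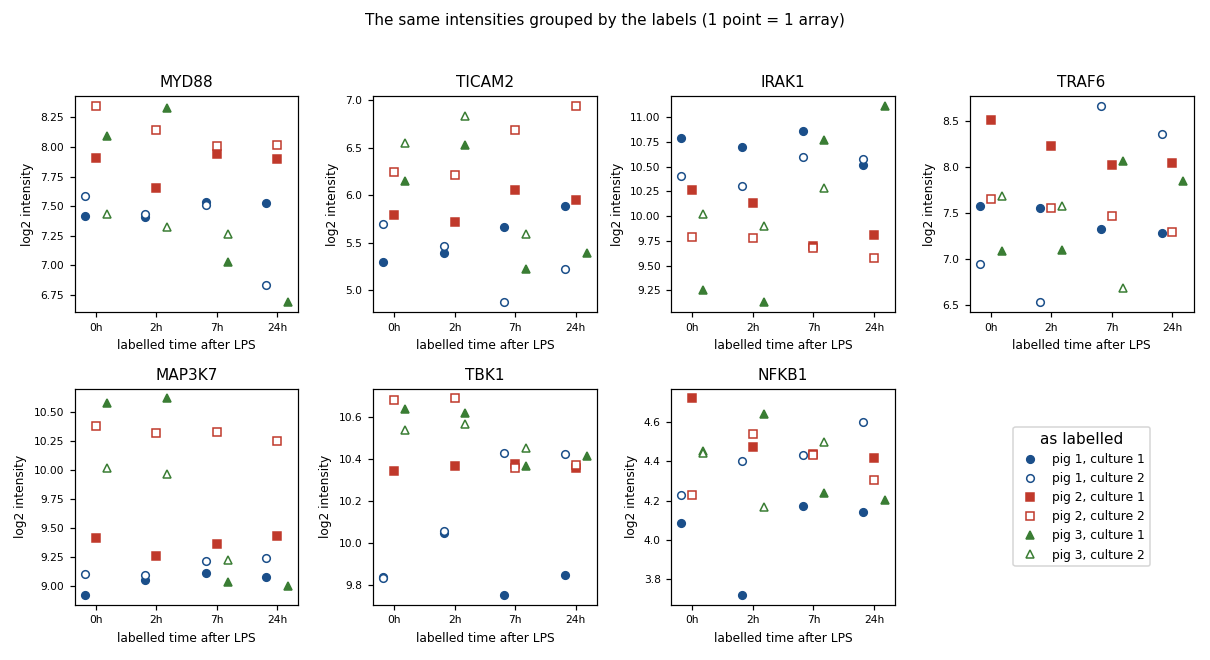
The same log2 intensities grouped by labelled time, with pig and culture as labelled; 1 point is 1 array and each panel has its own scale. The labelled times overlap for all 7 genes.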

How the data were processed

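RNA of 23 macrophage cultures was biotin-labelled and measured on Affymetrix pig arrays. The authors deposited an intensity for each probe set, not on a log scale. Per the submitters' processing notes these came from affy with RMA, which corrects background and normalizes; neither the tool versions nor a genome build is stated there. Each intensity was converted to log2 here with no further normalization, whereas the planned design had assumed log2 values. Array controls (124 of 24123 probe sets) were dropped. A single gene was named for 10069 probe sets, more than 1 gene for 198 and no gene for 13732. Gene identifiers of 9961 of the 10069 were found in the RefSeq table of Sscrofa11.1, which updated their symbols. No sequence or coordinate is printed.

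For the runs of columns, the lowest, median and highest array, differences between medians and overlap were computed (Python 3.11.15). The labelled times were tested with limma 3.58.1 (R 4.3.3) on 12 pig-by-time means, with pig as a block and Benjamini-Hochberg adjustment over 23999 probe sets. The block follows the series description, by which the same pigs supplied every time. Deviations of means from the same labelled pig correlated at 0.27 to 0.97. Since the labels failed their check, this correlation cannot show that the pairing by animal holds. Whether a pig's duplicate cultures were independent is not stated. Both procedures were run on simulated data with known shifts. These simulations held no pig effect and no wrong labels, so they check the code and not its performance on these arrays. The members, lists and column order were chosen with earlier results of these data known. Named were the 7 members, EIF1AY, TNF and IL1B, up to 3 genes per pathway list with the widest range of run medians, and the 3 genes nearest to each member; TLR4, CD14, IRF3, UBE2V1 and the cell type markers named were chosen after their values were seen.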

Additional observations from a re-analysis of the deposited data

Results flagged for a closer look

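Over 88 combinations of member probe set with a labelled time or a run of columns, 6 had 1 array far from the rest by Dixon's criterion, where chance gives about 4.4; probe sets of a gene and neighbouring columns are not independent. Column 15, labelled culture 2 of pig 2 at 7 h, was high among the labelled 7 h arrays in both MAP3K7 probe sets. It had 10.33 (others 9.04 to 9.36) and 9.28 (others 7.81 to 8.36). TBK1 was low in columns 3 and 4, labelled culture 1 of pig 1. It had 9.75 at the labelled 7 h (others 10.36 to 10.45) and 9.85 at the labelled 24 h (others 10.36 to 10.42). On both of these arrays EIF1AY went against the labelled sex. By column, none of these arrays was flagged for these probe sets within its run. In columns 1 to 6, column 1 was low in both MAP3K7 probe sets, at 8.93 (others 9.06 to 9.12) and 7.81 (others 8.08 to 8.23).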

How the results depend on the processing

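For the labelled times, 0 member probe sets were called under all 9 alternatives, and the lowest adjusted p of a member was 0.620. The counts over all probe sets moved, given here for 2 h, 7 h and 24 h against 0 h, 7 h against 2 h and 24 h against 7 h: 3, 0, 1, 1 and 1 as reported, 2, 0, 2, 3 and 1 with no replicate block, 30, 0, 15, 28 and 21 when all 23 arrays entered with a random block for each pig and time, 0 for each of the 5 with the first culture only, 0, 0, 0, 1 and 1 after quantile normalization, and 0, 1, 3, 1 and 0 when the 8 arrays whose EIF1AY level contradicts the label were dropped. Without any single pig all 5 counts were 0. Leaving out dim probe sets (mean log2 below 6) removed TICAM2, NFKB1 and the dimmer probe sets of MYD88 and TRAF6. None of the counts then changed. The cause of these shifts was not tested. Of the differences between column runs, 0 changed sign among those without overlap; 16 recomputed differences moved by more than the spread within runs and 544 did not. The count of members separated between columns 19 to 23 and columns 1 to 6 was 1 as reported, 2 with neighbouring columns averaged and 1 to 3 with a pair of columns left out; the other 4 counts stayed within 1.5 times. In columns 7 to 12 against columns 1 to 6, 3 of 7 members separated after quantile normalization, and 3 with the probe set of widest span standing for the gene. No share of all genes was computed for these alternative counts. The number of arrays, the dim probe sets of NFKB1, TICAM2, MYD88 and TRAF6, and labels that fail their check limit these results.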
